A study of Homo sapiens with 12 samples.

Results

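The mRNAs of 10 ligands with which tumour cells restrain or stimulate immune cells were followed in SCC-15, an established human cell line of oral squamous cell carcinoma. They were taken by gene symbol from a table of 61044 gene rows and are CD274, PDCD1LG2, CD276, VTCN1, CD47, LGALS9, PVR, NECTIN2, TNFSF9 and HHLA2. All 10 symbols were found, each under 1 Ensembl identifier. The cells carried a control hairpin (shRNA-NC, here NC) or a hairpin against FMOD, the gene of the matrix proteoglycan fibromodulin, of which there were 3 (shRNA1-FMOD, shRNA2-FMOD and shRNA3-FMOD, here shRNA1, shRNA2 and shRNA3). Every group thus carried a hairpin, all cells were harvested after 48 hours, and each of the 4 groups had 3 libraries. The series asked which genes differ when FMOD is depleted. The labels do not say that libraries of a group came from separate cultures, so p-values measure the spread between these libraries, which may be technical.

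Checkpoint ligands are surface or secreted proteins that a cell shows to T cells, natural killer cells and macrophages. CD274 (PD-L1) and PDCD1LG2 (PD-L2) bind PD-1 and dampen T cells, CD47 binds SIRPA and restrains engulfment by macrophages, and PVR and NECTIN2 bind the inhibitory receptor TIGIT and the activating receptor CD226. TNFSF9 (the ligand of 4-1BB) is a costimulator rather than a brake. Transcription of CD274 in tumour cells is known to be induced by interferon through JAK kinases, STAT proteins and IRF1, which bind elements just upstream of the gene.

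Libraries held between 17286934 and 19567192 estimated counts. FMOD itself had 2, 2 and 3 counts in the NC libraries and 0 in all 9 hairpin libraries. None of these exceeds the floor of 3 counts used here, so the size of its depletion cannot be read from them. Levels are given as CPM, counts scaled to 1 common library total after TMM scaling, which evens out differences in library composition. The factors were 0.771 and 0.794 for libraries 1 and 2 of shRNA3 and lay between 0.979 and 1.11 elsewhere. These 2 libraries correlated with each other at 0.987 and with library 3 of their own group at only 0.911 and 0.908, whereas library 3 correlated with the shRNA1 and shRNA2 libraries at 0.972 to 0.981 (log2 CPM across genes). Results for shRNA3 are therefore given with and without libraries 1 and 2 where the value moves. Without them 1 library stands for the group and is assumed to vary like the others. As a check of the label, the 12 epithelial and squamous markers summed to between 3027 and 3269 CPM in NC and between 2620 and 5311 CPM in the hairpin libraries.

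In NC cells the ligands spanned more than 3 orders of magnitude. Per kilobase of exon, mean levels in NC were 53 CPM for NECTIN2, 43.3 for CD47, 29.7 for PVR, 26.1 for CD276 and 25.1 for TNFSF9. A gap then separated CD274 at 4.55, LGALS9 at 1.33 and PDCD1LG2 at 1.32 CPM per kilobase. VTCN1 (0.244) and HHLA2 (0.0273) were near the limit of detection. The SDs of neighbours overlapped for PVR, CD276 and TNFSF9 and for LGALS9 and PDCD1LG2. In all 3 FMOD hairpin groups the order opened with TNFSF9, at 81.9 ± 7.01 (SD, n = 3), 92.6 ± 1.65 and 456 ± 312 CPM per kilobase with shRNA1, shRNA2 and shRNA3. CD47 lay in the fifth place there, at 7.11, 5.18 and 5.7 CPM per kilobase.

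**Figure D1:**
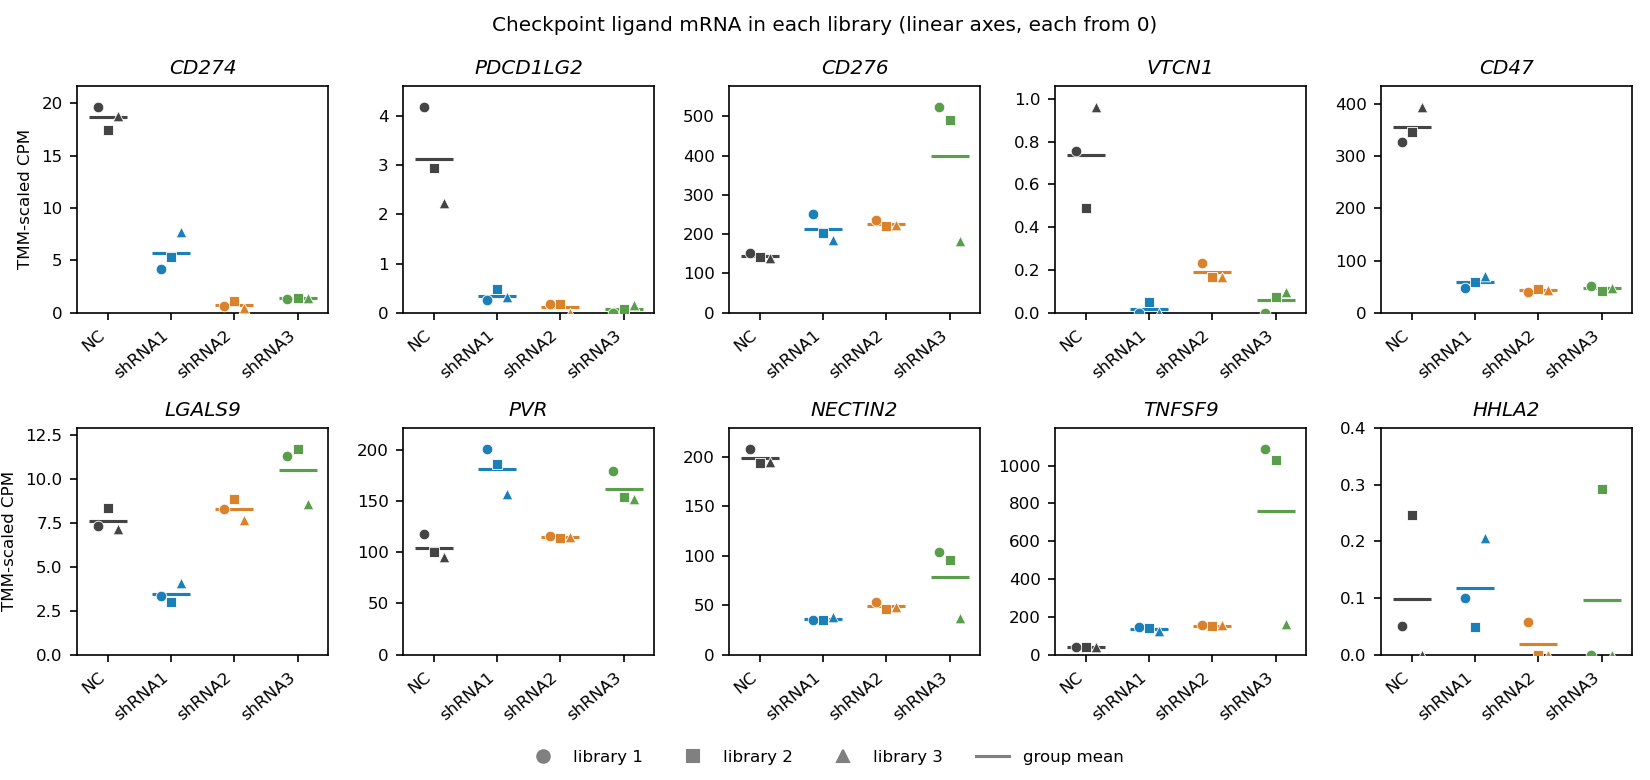
TMM-scaled CPM of the 10 ligands in each of the 12 libraries, on linear axes that start at 0 and differ between panels. Symbols mark the library number within a group and horizontal lines the group mean. CD274, PDCD1LG2, CD47 and NECTIN2 lie below NC in every FMOD hairpin library, TNFSF9 lies above NC in every one, and libraries 1 and 2 of shRNA3 stand apart from library 3 for CD276, NECTIN2 and TNFSF9.

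Of the 10 ligands, 8 had enough counts to be tested with edgeR's quasi-likelihood F test, in 1 model over 12 libraries and 17532 genes (adjusted p under 0.05). With shRNA1, 2 rose and 5 fell, while among all tested genes 26.8% rose and 30.6% fell. With shRNA2, 1 rose and 4 fell (all genes, 24.6% and 28.4%), and with shRNA3, 3 rose and 4 fell (all genes, 26.4% and 27.6%). For the mean of the 3 hairpins against NC, 3 rose and 4 fell (all genes, 27.9% and 32.2%). TNFSF9 rose and CD274, PDCD1LG2, CD47 and NECTIN2 fell with all 3 hairpins, as did 16% and 19.7% of all genes in either direction. The median log2 fold change of the 8 tested ligands was -1.42, -0.95 and -0.43 with shRNA1, shRNA2 and shRNA3, beside -0.02, -0.05 and -0.03 over all tested genes. PDCD1LG2 passed the filter on low counts through its NC libraries alone and so had to differ, and the 3 comparisons share the NC libraries. The counts therefore only describe these 8 genes. In bulk RNA, fewer cells that express a gene and less RNA per cell cannot be told apart.

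**Figure D2:**
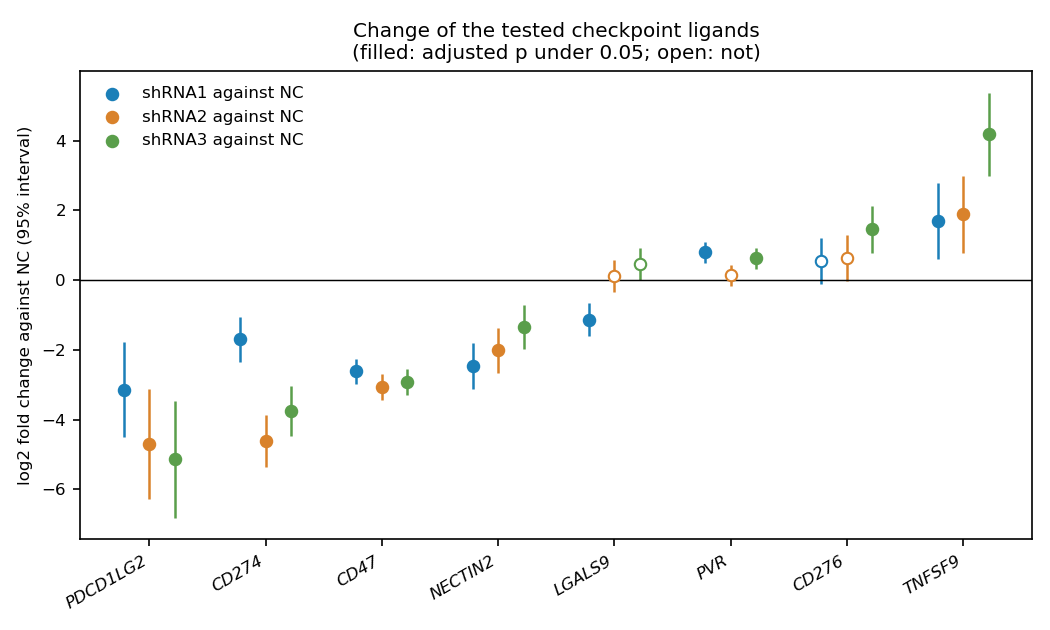
Fitted log2 fold change of the 8 tested ligands with each FMOD hairpin against NC, with 95% intervals from edgeR. Filled points had an adjusted p under 0.05. Values run from -5.14 for PDCD1LG2 to 4.18 for TNFSF9, both with shRNA3.

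CD274 (ENSG00000120217, chr9:5450503-5470566, plus strand, GRCh38) encodes PD-L1, and its mRNA fell with every hairpin, most with shRNA2. It stood at 19.7, 17.5 and 18.8 CPM in the NC libraries, at 4.18, 5.33 and 7.69 with shRNA1, at 0.644, 1.13 and 0.499 with shRNA2 and at 1.33, 1.38 and 1.39 with shRNA3. No hairpin library overlapped NC, and the shRNA1 libraries lay above all shRNA2 and shRNA3 libraries. Levels were 3.26-fold, 24.5-fold and 13.6-fold lower than in NC (log2 fold change -1.70 ± 0.29 SE, -4.61 ± 0.35 and -3.76 ± 0.33; edgeR adjusted p = 0.000472, 1.39e-06 and 4.2e-06). The hairpins also differed from each other. CD274 was 7.52-fold higher with shRNA1 than with shRNA2 (adjusted p = 0.001, edgeR) and 4.16-fold higher than with shRNA3 (adjusted p = 0.00346). The difference between shRNA2 and shRNA3 did not pass (log2 -0.85, 95% interval -1.60 to -0.10, edgeR adjusted p = 0.117). Libraries 1 and 2 of shRNA3 averaged 1.02 times its library 3 for this gene.

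The stretch just upstream of CD274 is shown because it carries the interferon elements, and that of TNFSF9 because it is the ligand whose mRNA rose with all 3 hairpins. Both are RefSeq sequence of GRCh38.p14, plus strand, 5′ to 3′, chr9:5450292-5450502 and chr19:6530776-6530998, ending where the GENCODE gene begins. Capitals mark matches on either strand to the motifs described next.
CD274: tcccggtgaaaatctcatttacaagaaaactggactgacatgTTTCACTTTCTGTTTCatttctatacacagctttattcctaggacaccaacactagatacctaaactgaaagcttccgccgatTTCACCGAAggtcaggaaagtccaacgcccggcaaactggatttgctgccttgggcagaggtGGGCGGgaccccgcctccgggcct
TNFSF9: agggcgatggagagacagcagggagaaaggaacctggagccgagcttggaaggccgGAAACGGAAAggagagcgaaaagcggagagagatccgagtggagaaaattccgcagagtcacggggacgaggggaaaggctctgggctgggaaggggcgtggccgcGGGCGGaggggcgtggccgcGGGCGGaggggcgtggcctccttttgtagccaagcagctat

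Windows of 250 bases before the RefSeq start were searched on both strands for TTCNNNGAA (the GAS element, an interferon gamma activated site), GAAA followed after any 2 bases by GAAA (the IRF repeat, bound by interferon regulatory factors), TGANTCA (AP-1), CACGTG (the E-box), GGGCGG (the GC box) and the NF-kappaB motif. The table held 12 windows for 9 of the ligands, PDCD1LG2 not among them. CD274 had a GAS match 125 bases before its start, 2 overlapping IRF repeats at 208 and 202 bases, and a GC box at 63 bases. TNFSF9 had an IRF repeat at 194 bases and GC boxes at 88 and 68 bases. Among 35116 windows of all genes, 6.57% held the GAS letters, 3.02% the IRF repeat, 6.57% the AP-1 letters, 6.34% the E-box, 42.6% a GC box and 5.21% the NF-kappaB motif. CD47, NECTIN2 and CD276 held GC boxes only, with 6 in CD47 and 3 in NECTIN2. HHLA2 had an AP-1 match at 139 bases, and LGALS9, PVR and VTCN1 had none of the 6 motifs in these windows. A match describes letters and shows no binding.

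PDCD1LG2 (ENSG00000197646, chr9:5510570-5571254, plus strand), the gene of PD-L2, begins 40004 bases after the end of CD274. Its 3 NC libraries held 83, 60 and 44 counts. Those with shRNA1 held 5, 10 and 6, those with shRNA2 held 3, 3 and 0, and those with shRNA3 held 0, 1 and 3. The groups did not overlap with NC. Pooled over libraries, NC was 8.95 times the level with shRNA1 (95% counting interval 5.69 to 14.8), 27.5 times that with shRNA2 (12.4 to 76) and 37 times that with shRNA3 (14.2 to 137). The intervals cover counting error only. PDCD1LG2 fell with each hairpin in the edgeR fit (adjusted p = 0.0012, 0.000229 and 0.000187), with fitted log2 fold changes of -3.14, -4.70 and -5.14. The gene passed the filter on low counts through its NC libraries alone and so had to differ, and these p-values lend the fall no support. At 0 to 3 counts the fitted sizes with shRNA2 and shRNA3 move with single libraries: -4.09 without library 3 of shRNA2, and -6.17 without library 3 of shRNA3 or -4.30 without its libraries 1 and 2. PDCD1LG2 did not differ by the test between hairpins, being 4-fold higher with shRNA1 than with shRNA3 (95% interval of the log2 difference 0.16 to 3.84, edgeR adjusted p = 0.0883), a log2 difference that was 3.04 and past the threshold without library 3 of shRNA3 (adjusted p = 0.0284).

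CD276 and VTCN1 encode B7-H3 and B7-H4, members of the same family as PD-L1 that are known as inhibitors of T cells. CD276 (ENSG00000103855, chr15:73683966-73714518, plus strand) was at 153, 142 and 140 CPM in NC, at 251, 204 and 186 with shRNA1, at 236, 222 and 223 with shRNA2 and at 525, 490 and 183 with shRNA3. Every hairpin library was above every NC library, and libraries 1 and 2 of shRNA3 were the highest. CD276 rose with shRNA3 (2.76-fold, log2 1.46 ± 0.31 SE, edgeR adjusted p = 0.0019) and for the mean of the hairpins against NC (1.86-fold, adjusted p = 0.011). The change with shRNA3 depended on its libraries 1 and 2, whose mean was 2.78 times library 3, and was 0.37 (adjusted p = 0.0442) without them. With shRNA1 and shRNA2 the log2 differences of 0.56 and 0.65 did not pass (edgeR adjusted p = 0.132 and 0.0909), but passed when only the 2 groups compared were fitted (adjusted p = 0.00217 and 4.3e-08). CD276 was lower with shRNA1 than with shRNA3 (log2 -0.90, edgeR adjusted p = 0.0438), a call lost without any single shRNA1 library or without library 1 or 2 of shRNA3 (adjusted p = 0.0749 to 0.154), and 0.21 without both.

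VTCN1 (ENSG00000134258, chr1:117143587-117210960, minus strand) was at the limit of detection. It had 15, 10 and 19 counts in NC, 0, 1 and 0 with shRNA1, 4, 3 and 3 with shRNA2 and 0, 1 and 2 with shRNA3. All 9 hairpin libraries lay below all 3 NC libraries. The gene did not pass the filter, and for the 9 hairpin against the 3 NC libraries log2(CPM + 1) differed by -0.67 on average (p = 0.00455, two-sided, by an exact permutation test whose 220 arrangements can give no smaller value). This test pools the 3 hairpins. In the edgeR fit with no filter VTCN1 passed with shRNA1 and shRNA3 (adjusted p = 0.000734 and 0.00661). With shRNA2 it did not pass in that fit (log2 -1.88, edgeR adjusted p = 0.0839). The pooled NC level was 44.2 times that with shRNA1 (95% counting interval 7.53 to 1786), 3.89 times that with shRNA2 (1.93 to 8.67) and 11.6 times that with shRNA3 (3.72 to 58.4).

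HHLA2 (ENSG00000114455, chr3:108296490-108378285, plus strand), a B7 family member that binds TMIGD2 and KIR3DL3, had 0 to 5 counts in NC and 0 to 4 in the hairpin libraries. No difference was detectable at this depth (exact two-sided permutation p = 0.759). The pooled ratio of NC to shRNA1 was 0.861 with a 95% counting interval from 0.239 to 2.99. A pseudogene, HNRNPA1P17, overlaps HHLA2 on the other strand, and whether counting used strand is not given in the sources used here.

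CD47 (ENSG00000196776, chr3:108043094-108091862, minus strand) fell with the smallest standard errors among the ligands that fell. NC libraries stood at 328, 346 and 395 CPM. Those with shRNA1 stood at 46.7, 59.3 and 69.5, those with shRNA2 at 40.2, 44.6 and 43.1 and those with shRNA3 at 51.2, 42.1 and 47.3. The highest hairpin library was far below the lowest NC library, and libraries 1 and 2 of shRNA3 averaged 1.01 times library 3. CD47 fell 6.09-fold, 8.36-fold and 7.6-fold (log2 -2.61 ± 0.16 SE, -3.06 ± 0.17 and -2.93 ± 0.17; edgeR adjusted p = 4.32e-07, 1.56e-07 and 2.2e-07). No pair of hairpins differed by the test. The log2 difference was 0.46 for shRNA1 against shRNA2 (95% interval 0.11 to 0.80, edgeR adjusted p = 0.0803), 0.32 for shRNA1 against shRNA3 (-0.02 to 0.66) and -0.14 for shRNA2 against shRNA3 (-0.48 to 0.20). Fitting only shRNA1 and shRNA2 brought that first difference to an adjusted p of 0.0418.

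The 8 genes known to make, present or counter the CD47 and galectin-9 signals were examined beside them. With the 3 hairpins 6, 5 and 5 fell and 0, 0 and 1 rose, beside 30.6%, 28.4% and 27.6% of all tested genes that fell and 26.8%, 24.6% and 26.4% that rose. With all 3 hairpins 5 fell (19.7% of all genes), among them QPCT, which passed the filter on low counts only through NC. QPCT, a glutaminyl cyclase of the kind that modifies the end of CD47 bound by SIRPA, went from 15.4 ± 1.17 CPM (SD, n = 3) in NC to 0 counts in all shRNA1 and shRNA3 libraries, at least 103-fold and at least 78.4-fold lower against a floor of 3 counts per library. With shRNA2 it had at most 1 count in a library. QPCTL, the Golgi cyclase known to act on CD47, did not pass with shRNA1 or shRNA2 (log2 -0.57 and 0.29), though it did when only the 2 groups compared were fitted (edgeR adjusted p = 0.00444 and 0.00511). It rose by 1.03 on the log2 scale with shRNA3 (edgeR adjusted p = 0.0127), a value of -0.04 without libraries 1 and 2 of that group and a call lost when only NC and shRNA3 were fitted (adjusted p = 0.0606). THBS1, a secreted ligand of CD47, fell from 836 ± 123 CPM to 98.6 ± 60.3, 18.3 ± 0.46 and 32.5 ± 12.5 (log2 -3.08, -5.51 and -4.69). Its change was -3.71 without library 3 of shRNA1 and -5.48 without libraries 1 and 2 of shRNA3. CALR, the chaperone that acts as a signal for engulfment when exposed at the surface, fell from 1361 ± 38 CPM to 536 ± 65.4, 541 ± 14.8 and 757 ± 244 (log2 -1.35, -1.33 and -0.85, the last -1.49 without libraries 1 and 2). Its call with shRNA3 was lost when only NC and shRNA3 were fitted (edgeR adjusted p = 0.0807). SIRPA was measured in these cells at 23.5 ± 1.2 CPM in NC and did not pass with any hairpin, except with shRNA2 when only NC and shRNA2 were fitted (log2 0.46, edgeR adjusted p = 0.000128). Its difference with shRNA3 was -0.39, but -1.05 without library 3 (adjusted p = 4.69e-06) and 0.42 without libraries 1 and 2 (adjusted p = 0.0309).

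LGALS9 (ENSG00000168961, chr17:27629798-27649560, plus strand) encodes galectin-9, a sugar-binding ligand of the T-cell receptor TIM-3, and was the only ligand tested that fell with 1 hairpin and did not pass with the others. It stood at 7.32, 8.32 and 7.15 CPM in NC, 3.33, 3 and 4.08 with shRNA1, 8.26, 8.85 and 7.64 with shRNA2 and 11.3, 11.7 and 8.54 with shRNA3. The shRNA1 libraries lay below all others, while the shRNA2 libraries overlapped NC. It fell 2.19-fold with shRNA1 (log2 -1.13 ± 0.22 SE, edgeR adjusted p = 0.000977). With shRNA2 the difference was 0.12 (95% interval -0.35 to 0.58) and with shRNA3 0.47 (edgeR adjusted p = 0.0812), the latter 0.60 and past the threshold without library 3 (adjusted p = 0.00775). The test of the difference itself passed for shRNA1 against shRNA2 (2.37-fold lower, adjusted p = 0.0061, edgeR) and against shRNA3 (3.03-fold lower, adjusted p = 0.00254). Its near-identical paralogues LGALS9B and LGALS9C rose with all 3 hairpins, by 1.70, 2.74 and 2.20 and by 1.06, 2.45 and 2.53 on the log2 scale. The rise of LGALS9C with shRNA1 was lost without library 1 or 3 of NC or of shRNA1 (edgeR adjusted p = 0.0733 to 0.114). Reads could be split between these copies, so the values of all 3 genes are uncertain.

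PVR (ENSG00000073008, chr19:44643798-44663583, plus strand) and NECTIN2 (ENSG00000130202, chr19:44846175-44889228, plus strand) encode CD155 and CD112, lie 182592 bases apart and share the receptors TIGIT and CD226, yet their mRNAs went in opposite directions with shRNA1 and shRNA3. PVR stood at 118, 100 and 95 CPM in NC, 201, 186 and 157 with shRNA1, 116, 114 and 115 with shRNA2 and 179, 154 and 152 with shRNA3. The shRNA1 and shRNA3 libraries were above all NC libraries and the shRNA2 libraries lay within their range. PVR rose 1.74-fold with shRNA1 (log2 0.80 ± 0.14 SE, edgeR adjusted p = 0.00042) and 1.55-fold with shRNA3 (0.63 ± 0.13, adjusted p = 0.00213), and the difference with shRNA2 was 0.14 (95% interval -0.16 to 0.43). PVR with shRNA2 was lower than with shRNA1 (log2 difference 0.66, edgeR adjusted p = 0.012) and than with shRNA3 (-0.49, adjusted p = 0.0483). Leaving out any single shRNA1 or shRNA2 library other than library 3 of shRNA1 took the former to edgeR adjusted p-values of 0.0552 to 0.058. Leaving out any shRNA2 library, or library 1 or 2 of shRNA3, took the latter to between 0.129 and 0.162. In the latter fits 0 genes in all passed, except 19 of 18165 without library 1 of shRNA3. That loss is therefore not particular to PVR. CEACAM19 overlaps PVR on the same strand. It had means of 9.45 CPM in NC and 3.96, 2.3 and 5.35 with the hairpins, and fell with shRNA1 and shRNA2 (log2 -1.25 and -2.03). Its call with shRNA1 was lost without library 3 of that group (edgeR adjusted p = 0.056), and with shRNA3 its log2 difference was -0.83, or -1.17 and past the threshold without library 1 (adjusted p = 0.0299) and -2.02 without libraries 1 and 2.

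NECTIN2 stood at 208, 193 and 194 CPM in NC, 35.5, 34.9 and 38 with shRNA1, 53.4, 46.3 and 48.1 with shRNA2 and 104, 95.5 and 36.8 with shRNA3. All hairpin libraries were below all NC libraries, and library 3 of shRNA3 lay with the shRNA1 libraries. NECTIN2 fell 5.5-fold, 4.03-fold and 2.52-fold (log2 -2.46 ± 0.30 SE, -2.01 ± 0.30 and -1.34 ± 0.29; edgeR adjusted p = 4.37e-05, 0.000176 and 0.0024). Without libraries 1 and 2 of shRNA3 the last value was -2.40. NECTIN2 was lower with shRNA1 than with shRNA3 (log2 -1.12, edgeR adjusted p = 0.0179), a difference of -0.04 without those 2 libraries. It also missed the threshold without library 1 or 2 of shRNA1 (adjusted p = 0.0609 and 0.0653) and without library 1 or library 2 of shRNA3 alone (0.0702 and 0.0653).

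TNFSF9 (ENSG00000125657, chr19:6530999-6535928, plus strand) rose with every hairpin. It stood at 41.9, 42.9 and 40.5 CPM in NC, 146, 140 and 123 with shRNA1, 156, 151 and 155 with shRNA2 and 1090, 1028 and 160 with shRNA3. All 9 hairpin libraries were above NC, and library 3 of shRNA3 lay beside the shRNA2 libraries while libraries 1 and 2 averaged 6.61 times its level. The rise was 3.27-fold, 3.69-fold and 18.2-fold (log2 1.71 ± 0.50 SE, 1.89 ± 0.50 and 4.18 ± 0.55; edgeR adjusted p = 0.0118, 0.0076 and 7.5e-05). Without libraries 1 and 2 of shRNA3 the last value was 1.97 (adjusted p = 1.66e-08). TNFSF9 was higher with shRNA3 than with shRNA1 (log2 -2.48 for shRNA1 against shRNA3, edgeR adjusted p = 0.0084) and than with shRNA2 (-2.30, adjusted p = 0.0314). These differences were -0.25 and -0.07 without libraries 1 and 2. The second missed the threshold without any single shRNA2 library (edgeR adjusted p = 0.126 to 0.135) or without library 1 or 2 of shRNA3 alone (0.113). For shRNA2 against shRNA3, 0 genes in all passed without any shRNA2 library or library 2 of shRNA3. Without library 1 of shRNA3, 19 of 18165 passed, so this loss is not particular to TNFSF9.

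Among the 8 tested ligands, shRNA1 against shRNA2 gave 2 higher and 1 lower (5.78% and 6.53% of all genes). For shRNA1 against shRNA3, 1 was higher and 4 were lower (11.9% and 18.1% of all genes). For shRNA2 against shRNA3, 0 were higher and 2 lower (1.91% and 6.43% of all genes), with 5 at an unadjusted p under 0.05 in the edgeR fit. The DESeq2 Wald test called 3 ligands for this pair, and 3601 of the 61044 gene rows. Shares of all genes at an unadjusted p were not taken, so those counts only describe the ligands. With libraries 1 and 2 of shRNA3 left out, 1 library stands for that group. The log2 differences of shRNA1 and of shRNA2 from shRNA3 were then -0.25 and -0.07 for TNFSF9, 0.21 and 0.30 for CD276 and -0.04 and 0.41 for NECTIN2. Without library 3 of shRNA3, 5 ligands passed for shRNA2 against shRNA3, CD276 (log2 -1.15, adjusted p = 5.37e-07), NECTIN2 (adjusted p = 5.01e-07) and LGALS9 (-0.47, adjusted p = 0.0355) among them. That fit called 10800 of 18242 genes for this pair, so the count only describes the ligands. With only the 2 groups of a pair fitted, shRNA1 and shRNA2 against shRNA3 gave 0 ligands each (4 and 2 at an unadjusted p under 0.05). Those fits called 0 of 15326 and 0 of 15116 genes, so the loss is not particular to the ligands. Such a fit of shRNA1 against shRNA2 gave 5 ligands, beside 6251 of 15256 genes. CD274 and LGALS9, whose values in shRNA3 differ by at most 1.35-fold between libraries 1 and 2 and library 3, are the ligands that differed between shRNA1 and both other hairpins in the fit over all libraries. Against shRNA3 both had an edgeR adjusted p of 0.117 when only those 2 groups were fitted, a fit in which no gene passed.

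Receptors for checkpoint ligands are mostly made by immune cells. Of 14 listed, not all of them partners of the 10 ligands, 12 had too few counts to be tested and none of these had more than 12 counts in any library. Besides SIRPA, described above, the exception was TNFRSF9, the 4-1BB receptor of TNFSF9, at 42.2 ± 4.84 CPM (SD, n = 3) in NC and 1.4 ± 0.101, 0.831 ± 0.208 and 0.806 ± 0.4 with the hairpins. NC libraries lay between 38.4 and 47.7 CPM and no hairpin library exceeded 1.49. TNFRSF9 fell (log2 fold change -4.91, -5.65 and -5.72; edgeR adjusted p = 4.71e-07, 2.5e-07 and 2.59e-07). The mRNAs of this ligand and of its receptor thus moved in opposite directions with all 3 hairpins.

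Other ligands and receptors that tumour cells show to immune cells moved in both directions. Of 27 listed genes, 20 were tested: 8 rose and 4 fell with shRNA1, 7 and 6 with shRNA2 and 9 and 6 with shRNA3. The medians were 0.28, 0.03 and 0.41, and 6 rose and 4 fell with all 3. Among all tested genes 26.8%, 24.6% and 26.4% rose and 30.6%, 28.4% and 27.6% fell with the 3 hairpins. With all 3, 16% of all genes rose and 19.7% fell, so the counts only describe these 20 genes. TNFRSF14 (HVEM), which binds the inhibitory receptor BTLA and passed the filter on low counts only through NC, went from 9.52 ± 0.859 CPM (SD, n = 3) in NC to 0.365 ± 0.331, 0.228 ± 0.062 and 0.278 ± 0.0756 (log2 -4.68, -5.35 and -5.07). Its value with shRNA1 was -5.70 without library 1 of that group. ULBP1, a ligand of the activating receptor NKG2D, fell from 18 ± 2.44 CPM to 1.36 ± 0.332, 1.27 ± 0.348 and 2.51 ± 1.61 (log2 -3.72, -3.82 and -2.81). The shRNA3 value was -3.51 without library 3 and -2.01 without libraries 1 and 2. CD70, a TNF family costimulator like TNFSF9, rose from 19.8 ± 1.86 CPM to 203 ± 19.6, 259 ± 5.29 and 845 ± 535 (log2 3.36, 3.71 and 5.42, the last 3.57 without libraries 1 and 2). NECTIN1, an adhesion molecule of the family of NECTIN2, rose from 62 ± 1.7 CPM to 281 ± 14.6, 425 ± 8.61 and 474 ± 172 (log2 2.18, 2.77 and 2.93, the last 2.21 without libraries 1 and 2).

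Genes of interferon signalling upstream of CD274 fell more often than they rose. Of 16 genes, all tested, 8 fell and 1 rose with shRNA1, 8 fell and 1 rose with shRNA2 and 9 fell and 3 rose with shRNA3. Among all tested genes 30.6%, 28.4% and 27.6% fell and 26.8%, 24.6% and 26.4% rose. The 8 that fell with all 3 hairpins (19.7% of all genes) included STAT2, IRF1, JAK1 and JAK2, and the medians were -0.49, -0.84 and -0.53, beside -0.02, -0.05 and -0.03 over all tested genes. IRF1, an interferon-induced transcription factor, fell from 142 ± 5.99 CPM (SD, n = 3) to 44.5 ± 7.8, 24.7 ± 1.14 and 69.2 ± 32 (log2 -1.67, -2.52 and -1.04). The shRNA3 value of IRF1 was -2.10 without libraries 1 and 2 of that group and missed the threshold when only NC and shRNA3 were fitted (edgeR adjusted p = 0.0884). STAT2 fell (log2 fold change -2.37, -2.10 and -1.47), the last -2.11 without those libraries. The kinase JAK1 fell (log2 fold change -1.11, -1.04 and -0.73), the last call being lost when only NC and shRNA3 were fitted (edgeR adjusted p = 0.073). PTPN2, a phosphatase that acts on JAK kinases, fell from 54 ± 3.12 CPM to 26.2 ± 3.26, 18.7 ± 1.5 and 19 ± 4.55 (log2 -1.04, -1.53 and -1.51).

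The receptor chain IFNGR1 went the other way, rising by 1.34 with shRNA1 and 1.03 with shRNA2. Leaving out any NC library, or library 2 of shRNA2, took the call with shRNA2 to adjusted p-values of 0.0557 to 0.0686 (edgeR). With shRNA3, IFNGR1 stood at 92.5 ± 62 CPM beside 65.4 ± 1.95 in NC and did not pass (log2 0.50). That value was -0.21 without library 3 and 1.36 without libraries 1 and 2. PVR and NECTIN2 overlap genes on the other strand, so their counts carry the same reserve on strand as HHLA2. Among the other list genes given here with values, so do QPCT, QPCTL, SIRPA, CALR, THBS1, CEACAM19, TNFRSF9, TNFRSF14, CD70, NECTIN1, IRF1, JAK1, JAK2, PTPN2, EGFR, CMTM6, VLDLR, GLIS3, NKPD1, CD68, CSF1R and COL1A2.

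**Figure D3:**
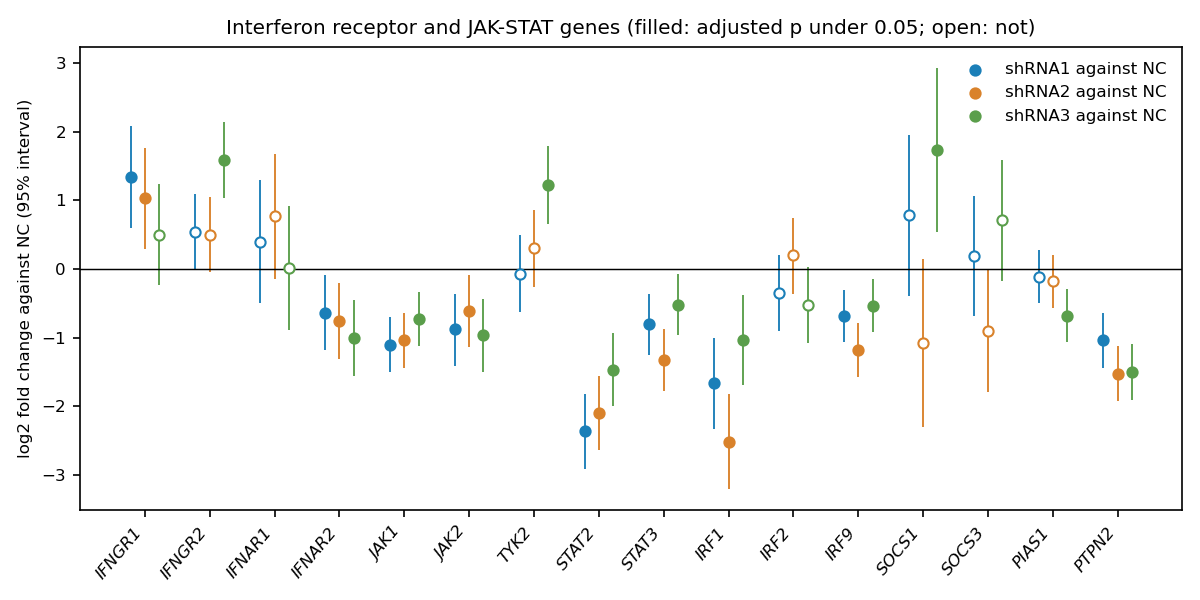
Fitted log2 fold change against NC of 16 interferon receptor and JAK-STAT genes, with 95% intervals from edgeR and filled points for an adjusted p under 0.05. STAT2 lies between -2.37 and -1.47 with the 3 hairpins, while IFNGR1 lies above 0, although its value with shRNA3 was -0.21 without library 3 of that group.

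Of 21 other genes known to act on the PD-L1 gene or protein, 9, 7 and 10 rose and 3, 4 and 3 fell with the 3 hairpins, and 4 rose and 1 fell with all 3. Among all tested genes 26.8%, 24.6% and 26.4% rose and 30.6%, 28.4% and 27.6% fell. With all 3 hairpins 16% of all genes rose and 19.7% fell, so the counts only describe these 21 genes. EGFR, the receptor kinase that the series' title names, fell from 1309 ± 54.7 CPM (SD, n = 3) to 312 ± 27, 237 ± 12.3 and 166 ± 77 (log2 -2.07, -2.46 and -2.98, the last -2.34 without libraries 1 and 2 of shRNA3). MYC, a transcription factor reported to act on both CD274 and CD47, rose from 77 ± 9.4 CPM to 484 ± 76, 684 ± 11.1 and 978 ± 364 (log2 2.65, 3.15 and 3.67, the last 2.92 without those libraries). NFKB1, a subunit of NF-kappaB, rose by 1.80, 1.86 and 1.25, the last 1.93 without them. CMTM6, which keeps PD-L1 from being degraded, rose with shRNA1 (0.78) and shRNA3 (1.14, or 0.43 without them). With shRNA2 it stood at 0.42 (edgeR adjusted p = 0.125, and 1.52e-05 when only NC and shRNA2 were fitted).

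CD274 and PDCD1LG2 lie side by side on 9p24, a segment that is gained or lost as a block in some tumours. Of 25 neighbours listed, 19 were tested, and 13, 12 and 14 of them fell and 0 rose with the 3 hairpins, at medians of -1.14, -0.86 and -1.29. Of all tested genes 30.6%, 28.4% and 27.6% fell and 26.8%, 24.6% and 26.4% rose, at medians of -0.02, -0.05 and -0.03. With all 3 hairpins 11 fell, beside 19.7% of all genes. VLDLR, GLIS3 and RLN2 passed the filter on low counts only through NC and so had to differ, and these 3 are among the 11. The counts and medians therefore only describe these neighbours. The number that rose was also 0 at an unadjusted p under 0.05 in the edgeR fit and by the DESeq2 Wald test. Those that fell with all 3 also included PLGRKT, a plasminogen receptor whose end lies 12625 bases before CD274. It went from 18.1 ± 3.18 CPM (SD, n = 3) in NC to 4.63 ± 0.402, 5.76 ± 1.45 and 6.09 ± 1.37 (log2 -1.97, -1.65 and -1.57). JAK2, the kinase whose gene ends 322320 bases before CD274, fell from 16.3 ± 1.03 CPM to 8.82 ± 2.59, 10.6 ± 1.73 and 8.31 ± 1.31 (log2 -0.88, -0.61 and -0.97). The call with shRNA2 was lost without any single NC or shRNA2 library (edgeR adjusted p = 0.0666 to 0.182), and that with shRNA3 without its libraries 1 and 2 (adjusted p = 0.0529).

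Farther out on 9p24, GLIS3, a zinc finger transcription factor, fell (log2 fold change -4.59, -4.40 and -4.39). VLDLR, a lipoprotein receptor, went from 11 ± 0.936 CPM (SD, n = 3) in NC to 0 to 4 counts per library with shRNA1 and 0 to 3 with shRNA2, and was at least 56-fold lower with shRNA3, whose libraries held 0. RLN2, the gene of relaxin 2, had 11 to 30 counts in NC and 0 in all hairpin libraries, at least 6.44-fold, at least 5.66-fold and at least 4.9-fold lower, a call that the DESeq2 Wald test did not make (adjusted p = 0.184, 0.204 and 0.214). RLN2 and its paralogue RLN1 are near-identical, so their counts are uncertain. The other 8 tested neighbours, SMARCA2, CDC37L1, RCL1, ERMP1, KIAA2026, RANBP6, UHRF2 and GLDC, did not fall with all 3 hairpins.

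**Figure D4:**
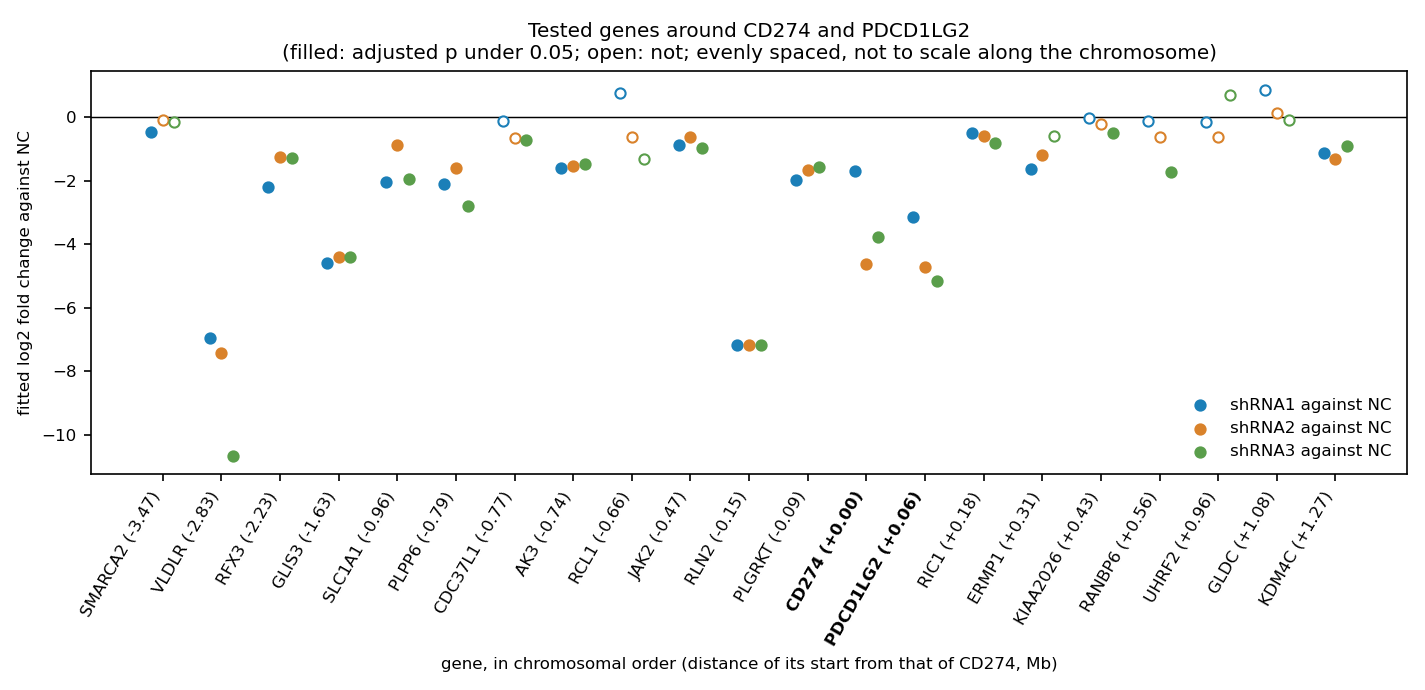
Fitted log2 fold change against NC of the tested genes around CD274 and PDCD1LG2, in chromosomal order and evenly spaced, with the distance of each start from that of CD274 in Mb. Filled points had an edgeR adjusted p under 0.05, and all filled points lie below 0. The fitted values of VLDLR and RLN2, at 0 counts in whole groups, depend on the prior count of the fit.

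Around PVR and NECTIN2 on 19q13, 16 of 19 listed neighbours were tested. With the 3 hairpins 8, 9 and 6 fell and 2 rose each time, at medians of -0.88, -1.33 and -0.73, and 6 fell and 2 rose with all 3. Among all tested genes 30.6%, 28.4% and 27.6% fell and 26.8%, 24.6% and 26.4% rose, at medians of -0.02, -0.05 and -0.03. With all 3 hairpins 19.7% of all genes fell and 16% rose. The counts and medians only describe these neighbours. NKPD1, which passed the filter only through NC and encodes a protein with a predicted NTPase domain, went from 4.3 ± 0.323 CPM (SD, n = 3) in NC to 0.151 ± 0.1, 0.209 ± 0.0906 and 0.0983 ± 0.0851. CBLC, a ubiquitin ligase of the CBL family, fell (log2 fold change -3.47, -3.08 and -2.90), the last -4.19 without libraries 1 and 2 of shRNA3. APOE, the apolipoprotein, fell (log2 fold change -1.59, -3.84 and -1.64), the last -3.02 without those libraries.

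The 5 genes whose pattern over the 12 libraries was most like that of CD274, by the root mean square difference of gene-centred log2(CPM + 1) among 14678 genes of at least 1 CPM, were SFTA1P (0.37), IL6 (0.39), MSRB3 (0.39), PSG4 (0.40) and LINC02945 (0.41). IL6, the cytokine interleukin 6, had means of 5.84 CPM in NC and 1.9, 0.0756 and 0.0494 with the hairpins. MSRB3, a methionine sulfoxide reductase, had 32.5 CPM in NC and 11.3, 3.72 and 5.49. Like CD274, these genes were highest in NC and intermediate with shRNA1, which follows from how they were chosen. The means of IL6 with shRNA2 and shRNA3 lay below the level of 3 counts per library.

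Markers of other cell types were followed beside the ligands. The 16 leukocyte markers summed to 64.5 to 82 CPM in NC, 50.5 to 107 with shRNA1, 90 to 96.4 with shRNA2 and 121 to 244 with shRNA3. CD68, a lysosomal gene also expressed outside macrophages, held most of this sum, at 63.2 ± 9.16 CPM (SD, n = 3) in NC and 75.6 ± 28, 82.4 ± 2.86 and 191 ± 71.9. MS4A1 and TYROBP were at 0 in all libraries, and CD4 and NKG7 had at most 3 counts in any. Of 5 leukocyte markers tested, 3 fell with each hairpin, and 1, 1 and 2 rose. Among all tested genes 30.6%, 28.4% and 27.6% fell and 26.8%, 24.6% and 26.4% rose. CSF1R, the receptor of a macrophage growth factor, rose from 2.97 ± 0.808 CPM to 6.56 ± 1.39, 6.97 ± 0.611 and 6.54 ± 3.27 (log2 1.14, 1.23 and 1.15; edgeR adjusted p = 0.018, 0.0136 and 0.019), the last 1.80 without libraries 1 and 2 of shRNA3. All 3 calls of CSF1R were lost without library 3 of NC (adjusted p = 0.076, 0.0608 and 0.08), that with shRNA1 also without library 1 of shRNA1 (0.0597), and that with shRNA3 also without library 1 of NC (0.0526) and when only NC and shRNA3 were fitted (0.0695). CD68 rose with shRNA3 (log2 1.60, edgeR adjusted p = 0.00146), a call lost without libraries 1 and 2 (0.80, adjusted p = 0.0517), and passed with shRNA2 only when NC and shRNA2 alone were fitted (0.39, edgeR adjusted p = 0.000872). CD8A, which passed the filter on low counts only through NC, had 13 to 16 counts in NC and 0 in the hairpin libraries, at least 4.69-fold, at least 4.13-fold and at least 3.57-fold lower. CD14 fell (log2 fold change -2.36, -1.17 and -2.40), its call with shRNA2 being lost without library 1 or 2 of NC or of shRNA2 (edgeR adjusted p = 0.0623 to 0.0988) and its value with shRNA3 being -1.77 without libraries 1 and 2. ITGAM fell (log2 fold change -1.31, -1.26 and -1.49), calls that missed the threshold with no filter on low counts (adjusted p = 0.0839, 0.112 and 0.055) and without library 1 or 3 of NC, library 1 or 2 of shRNA1, any library of shRNA2 or library 2 of shRNA3 (0.0672 to 0.164).

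The 12 fibroblast and endothelial markers summed to 83.5 to 90.7 CPM in NC, 22 to 27.9 with shRNA1, 55.5 to 58.3 with shRNA2 and 47.4 to 98.8 with shRNA3. COL3A1 and KDR had at most 3 counts in any library. Of 7 tested, 6, 5 and 5 fell and 1 rose with each hairpin. Among all tested genes 30.6%, 28.4% and 27.6% fell and 26.8%, 24.6% and 26.4% rose. COL1A2 and VWF passed the filter only through NC, and PECAM1 only through the hairpin libraries, so the counts only describe these genes. COL1A1 had the most counts of the list, 8786 over all libraries, and did not pass in 1 direction with all 3 hairpins. COL1A2, a collagen chain, had 89 to 108 counts in NC and at most 4 in a hairpin library, PDGFRB fell from 10.7 ± 1.22 CPM (SD, n = 3) to 0.765 ± 0.115, 1.1 ± 0.17 and 0.728 ± 0.332, and PECAM1 rose from 0.133 ± 0.0553 to 2.6 ± 0.449, 4.76 ± 0.82 and 8.74 ± 0.838. Of the 12 epithelial and squamous markers, 4, 5 and 7 rose and 3, 4 and 4 fell, beside the same shares of all tested genes. KRT5, a keratin of basal squamous cells, fell (log2 fold change -5.56, -3.65 and -3.75) and so did PKP1, a desmosomal plaque gene (-5.66, -4.89 and -2.29, the last -3.42 without libraries 1 and 2 of shRNA3). KRT14, the partner keratin of KRT5, rose by 2.87, 1.69 and 4.30, the last 1.76 without those libraries, and its call with shRNA2 was lost without library 1 or 2 of NC or library 1 or 3 of shRNA2 (edgeR adjusted p = 0.0501 to 0.0803). The part of these marker changes in the values of the ligands was not tested.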

How the data were processed

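RNA of 12 SCC-15 libraries was sequenced. The authors deposited 1 table of estimated counts (expected counts) per gene, of which 13.8% are not whole numbers. The submitters' processing notes list GRCh38, HISAT2 and HTSeq 0.11.2, and their annotation and use of strand are not given in the sources used here. Counts were rounded to whole numbers, scaled by TMM and filtered with filterByExpr (minimum count 10, minimum total 15), which left 17532 genes. They were tested with edgeR 4.0.16 (R 4.3.3, robust quasi-likelihood F test, two-sided) in 1 model of the 4 groups, with Benjamini-Hochberg adjustment over all tested genes. The standard error is the log2 fold change over the square root of F. The code was tested on simulated data.

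Positions and exon lengths are from GENCODE release 29, promoters from RefSeq. The ligands and gene lists were chosen with earlier results of these data known. From each other list the 3 genes with the largest mean change among those past the threshold with all 3 hairpins were named, with 12 further genes of interest (1 gene is not reported here), the 5 genes most like CD274, and, after their values were seen, CD68, CSF1R, LGALS9B, LGALS9C and CEACAM19. The count of 0 was given a floor of 3 counts. Alternatives were DESeq2 size factors, the DESeq2 1.42.0 Wald test, no filter, a mean of at least 50 counts, a replicate block, only the groups compared, a log2 change of at least 1, each library left out, and libraries 1 and 2 of shRNA3 left out.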

Additional observations from a re-analysis of the deposited data

Results flagged for a closer look

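For these results 2 FMOD hairpins, each compared with the same NC libraries, differed in their effect, and the edgeR test of the difference itself passed. CD274 was higher with shRNA1 than with shRNA2 (log2 difference 2.91) and than with shRNA3 (2.06). LGALS9 was lower with shRNA1 than with shRNA2 (-1.25) and than with shRNA3 (-1.60). PVR was higher with shRNA1 than with shRNA2 (0.66) and lower with shRNA2 than with shRNA3 (-0.49). TNFSF9 was lower with shRNA1 (-2.48) and with shRNA2 (-2.30) than with shRNA3. CD276 (-0.90) and NECTIN2 (-1.12) were lower with shRNA1 than with shRNA3. The differences of TNFSF9, CD276 and NECTIN2 from shRNA3 move with its libraries 1 and 2, and without them they were -0.25 and -0.07 for TNFSF9, 0.21 for CD276 and -0.04 for NECTIN2.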

How the results depend on the processing

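Against NC, the number of ligands called and the 5 called in 1 direction with all 3 hairpins stayed within 1.5 times the reported number under every alternative run, and 433 recomputed fold changes of ligands kept their direction and side of the threshold while 3 gained a call. Between hairpins, 245 kept both, 40 lost and 8 gained a call and 5 reversed. Of the other named genes against NC, 1560 kept both, 66 lost and 9 gained a call and 3 reversed. The 3 ligands called for shRNA1 against shRNA2 became 5 with only the groups compared, while calls over all genes went from 2158 of 17532 to 6251 of 15256. The 5 for shRNA1 against shRNA3 became 0 with only the groups compared, where 0 of 15326 genes passed. They became 3 to 6 when 1 library was left out, where between 1788 of 18237 and 11573 of 18242 genes passed. The 2 for shRNA2 against shRNA3 became 0 with no filter (911 of 33435 genes passed) and with only the groups compared (0 of 15116). They became 1 with a log2 change of at least 1, and 0 to 5 when 1 library was left out. The 5 came without library 3 of shRNA3, where 10800 of 18242 genes passed. Without a shRNA2 library 0 genes passed. Calls over all genes thus moved as well, and these counts only describe the ligands.

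Without libraries 1 and 2 of shRNA3 the log2 difference of CD276 turned to 0.21 (shRNA1 against shRNA3) and 0.30 (shRNA2 against shRNA3), that of NECTIN2 to 0.41 and that of PDCD1LG2 to -0.38 (shRNA2 against shRNA3), and the change against NC with shRNA3 turned to -0.04 for QPCTL and 0.42 for SIRPA. With 1 library left out, PDCD1LG2 ranged from -0.05 to 1.48 for shRNA2 against shRNA3 and IFNGR1 from -0.21 to 0.81 for shRNA3 against NC. Over all genes, calls for shRNA2 against shRNA3 went from 1462 to 10800 without library 3 of shRNA3 and to 378 with the replicate block, and those for shRNA1 against shRNA3 from 5258 to 0 with only the groups compared.

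The replicate numbers did not pair libraries: deviations from group means correlated at -0.00434 on average over 18 pairs with the same number (from -0.0663 to 0.052) and at 0.00186 over 36 others. With a replicate block the ligands called fell to 0 for shRNA2 against shRNA3 (4 at an unadjusted p under 0.05) and to 4 for shRNA1 against shRNA3. That fit called 378 and 4458 of 17532 genes for these pairs. Every count of ligands against NC kept its value. Low counts limit VTCN1, HHLA2 and the hairpin groups of PDCD1LG2. The mean of the hairpins was not refitted with only the groups compared, since that fit holds all 12 libraries.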

Other observations

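Among the other immune ligands, genes outside the naming rule also moved far, and these were picked after their values were seen. NCR3LG1 (B7-H6), the ligand of the activating receptor NKp30 on natural killer cells, stood at 2.32 ± 0.175 CPM (SD, n = 3) in NC and at 41.3 ± 8.13, 20.8 ± 1.92 and 15.3 ± 8.41 with shRNA1, shRNA2 and shRNA3. It rose by 4.15, 3.16 and 2.72 on the log2 scale (edgeR adjusted p = 3.65e-06, 2.04e-05 and 5.73e-05), the last 3.45 without libraries 1 and 2 of shRNA3. CD24, which binds Siglec-10 on macrophages and like CD47 restrains engulfment, fell from 33.4 ± 2.61 CPM to 5.18 ± 1.3, 3.84 ± 0.701 and 4.79 ± 0.628 (log2 -2.69, -3.12 and -2.80). NT5E, the ectoenzyme that makes adenosine, rose by 1.66, 0.91 and 0.93. ULBP2, a further NKG2D ligand, fell (log2 -1.57, -1.74 and -0.75). Its call with shRNA3 was lost without any single NC library or library 1 of shRNA3 (edgeR adjusted p = 0.0718 to 0.109), and its value was -1.75 without libraries 1 and 2.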
